A study of Mus musculus with 6 samples.

Results

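Type I interferon stimulated genes were followed across the cell classes and tumours of a single-cell RNA-seq study of mouse prostate tumours. The set was chosen by symbol: 33 genes were named, 31 of them had a row in the deposited table of 18848 genes, and Mx1 and Mx2 were not analysed here. Tumours of the PPS-ICBR line, prostate cancer cells described as resistant to immune checkpoint blockade (ICB), were grown in C57Bl6 mice. Of 4 groups, SD tumours came from mice on standard chow and BD tumours from mice on a diet in which 198 g of that chow was mixed with 80 mL of 1,3-butanediol (a ketone body precursor), 120 mL of water and 2 g of saccharine. ICB tumours came from mice on standard chow given antibodies to PD-1 and CTLA-4 at 0.2 mg biweekly, and BD+ICB tumours from mice given both the diet and the antibodies. Each group held 3 hashtags (cell labels). Each hashtag is taken here as 1 tumour and as the replicate, since the labels name no mice. The cells came from the leukocyte layer of a density gradient, so mesenchymal and cancer cells were those that this step left behind. SD and BD tumours shared one 10x library and ICB and BD+ICB tumours the other, with tumours marked by hashtags. Effects of blockade and of the library therefore cannot be told apart, whereas the diet was compared within a library.

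Type I interferons, such as interferon beta, bind a receptor made of Ifnar1 and Ifnar2. The kinases Jak1 and Tyk2 then activate transcription factors, Stat2 with Irf9 among them, that bind interferon-stimulated response elements in the promoters of the genes described here. Many of the same genes also respond to interferon gamma. Their products fall into roles. Isg15 is a ubiquitin-like modifier, Herc6 its ligase in mice and Usp18 the protease that removes it and a brake on the receptor. Ifit proteins bind foreign RNA, OAS enzymes make 2'-5' oligoadenylates that activate RNase L (Oasl1 and Oasl2 are relatives of these), and PYHIN proteins (Ifi204, Ifi205, Ifi209, Ifi211) belong to a family with DNA sensors. Irf7 and Stat2 are transcription factors, Ifih1 (MDA5), Ddx60 and Zbp1 take part in sensing nucleic acids, and Rsad2 (viperin), Cmpk2, Bst2 (tetherin), Isg20 and others are effectors. In tumours, neutrophils, monocytes and dendritic cells with high levels of these genes have been described as interferon-responding states.

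The promoters of the members carried the core of the response element more often than promoters at large. Of the 31 members, 24 had an entry in the RefSeq promoter table (GRCm38.p6); Oas2, Usp18, Ifi204, Ifi27l2a, Rtp4, Zbp1 and Parp14 had none. That core, GAAA repeated after a gap of NN (any bases), on either strand (TTTC, NN and TTTC when read on the other), was searched in the 250 bases before the annotated start, and overlapping matches were counted. It was present for 13 of the 24 members (54.2%), for 12 of 53 other genes of the pathway (22.6%) and for 936 of all 27025 genes (3.46%), counting a gene if any of its windows held it; by window the share was 978 of 32851 (2.98%). The sequences below are the 200 bases before the start of members on which later results turn, 5' to 3' on the gene's strand, with the matches in capitals. Isg15, Ifit1, Rsad2 and Oas1a stand for their roles and Ifit3 and Ifit3b for near-identical neighbours. Bst2 stands for a member found at high levels in non-immune as well as immune cells, and Oasl2 for a member without a match.

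Isg15 chr4:156200819-156201018 (minus strand): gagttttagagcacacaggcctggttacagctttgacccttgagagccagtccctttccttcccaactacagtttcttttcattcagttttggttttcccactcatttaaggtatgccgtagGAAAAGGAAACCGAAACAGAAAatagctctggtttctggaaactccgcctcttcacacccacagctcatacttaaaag
Ifit1 chr19:34640689-34640888 (plus strand): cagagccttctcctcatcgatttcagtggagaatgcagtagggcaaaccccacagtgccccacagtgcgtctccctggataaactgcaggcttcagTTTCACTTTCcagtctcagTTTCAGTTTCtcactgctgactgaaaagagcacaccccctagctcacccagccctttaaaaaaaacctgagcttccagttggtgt
Ifit3 chr19:34583329-34583528 (plus strand): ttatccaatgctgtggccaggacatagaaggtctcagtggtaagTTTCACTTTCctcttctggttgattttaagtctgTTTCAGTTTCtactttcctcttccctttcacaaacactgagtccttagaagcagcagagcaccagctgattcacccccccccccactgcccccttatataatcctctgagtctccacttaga
Ifit3b chr19:34607757-34607956 (plus strand): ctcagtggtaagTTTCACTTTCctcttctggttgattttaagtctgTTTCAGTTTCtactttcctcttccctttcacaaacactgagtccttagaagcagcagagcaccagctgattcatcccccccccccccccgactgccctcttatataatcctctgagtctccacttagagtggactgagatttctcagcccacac
Rsad2 chr12:26456453-26456652 (minus strand): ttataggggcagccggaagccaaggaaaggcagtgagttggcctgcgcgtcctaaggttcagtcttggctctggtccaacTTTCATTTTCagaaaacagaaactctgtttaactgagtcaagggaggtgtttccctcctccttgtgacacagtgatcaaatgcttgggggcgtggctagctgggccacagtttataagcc
Oas1a chr5:120907526-120907725 (minus strand): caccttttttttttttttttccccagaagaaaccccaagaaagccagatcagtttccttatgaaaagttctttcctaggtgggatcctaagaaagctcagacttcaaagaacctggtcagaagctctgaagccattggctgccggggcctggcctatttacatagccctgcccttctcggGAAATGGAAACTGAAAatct
Bst2 chr8:71537473-71537672 (minus strand): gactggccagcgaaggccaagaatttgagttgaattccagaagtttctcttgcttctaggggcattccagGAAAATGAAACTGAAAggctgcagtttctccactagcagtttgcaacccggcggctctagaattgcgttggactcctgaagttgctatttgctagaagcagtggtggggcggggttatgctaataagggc
Oasl2 chr5:114896734-114896933 (plus strand): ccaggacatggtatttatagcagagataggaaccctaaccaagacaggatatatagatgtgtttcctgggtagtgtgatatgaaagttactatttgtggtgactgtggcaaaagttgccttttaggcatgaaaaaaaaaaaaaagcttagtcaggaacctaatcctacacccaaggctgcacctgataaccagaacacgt

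In Isg15 the matches overlapped in one run, the first bases lying 78, 72 and 66 bases before the start. Ifit1 had separate matches at 104 and 85 bases, Rsad2 had 1 at 120 bases, and Oas1a had overlapping ones at 20 and 14 bases. The promoters of Ifit3 and Ifit3b were identical at 216 of 218 aligned bases (99.1%), with 64 gap columns left out. Ifit3 and Ifit1 shared 136 of 216 (63.0%), with 68 left out. Reads of such close copies may have been split between them, so Ifit3 and Ifit3b are given with that uncertainty, as are the OAS and PYHIN relatives. A match describes letters in this window, and no match for Oasl2 says only that they were not found there. The 4 Ifit genes lay together on chromosome 19, as did the 4 PYHIN genes on chromosome 1 and Rsad2 with Cmpk2 on chromosome 12. Of the OAS group, Oas1a, Oas2 and Oas3 lay side by side on chromosome 5, with Oasl1 and Oasl2 at another place on it.

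The table held 5749 cells in 19 classes named by the authors, here also merged into 9 compartments. Tumours held 70 (BD replicate 2) to 913 (ICB replicate 3) cells and 510984 to 13007506 transcript counts (UMIs). The libraries shared 1931 of 36632 barcodes, of which 2 were barcodes of deposited cells in both, and 184 deposited cells had a barcode also present in the other library. The authors' classes were checked against marker lists: the 7 neutrophil markers summed to 69258 CPM (counts per 1000000 UMIs) in neutrophils and to 318 in macrophages. Not every name matched its markers. Nos2+ dendritic cells had 0 of 7 conventional dendritic markers over 20 CPM (sum 14.5 CPM), but 7 of 7 macrophage markers (6045 CPM) and 6 of 6 monocyte markers (2150.2 CPM). Ifit+ monocytes carried both lists. Over 20 CPM they had 6 of 6 monocyte markers (sum 2750.1 CPM, against 6172.5 in Vcan+ monocytes and 1109.5 in M1 macrophages). They also had 7 of 7 macrophage markers (8541 CPM, against 2385.7 and 6729.7 in the same classes). Mesenchymal cells and proliferating cancer cells each had 6 of 6 mesenchymal markers over 20 CPM (sums 10656 and 3964 CPM). Each also had 2 of 5 epithelial markers over 20 CPM (1115 and 909 CPM). These lists do not settle which of the 2 classes is stroma and which is tumour. The authors' names are kept below as names only. No mice are named in the labels, so the spread between tumours may be partly technical.

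Isg15 and its companions were concentrated in the classes that the authors called Ifit+. Summed over the 31 members, Ifit+ neutrophils (110 cells) reached 26076 CPM and Ifit+ monocytes (49 cells) 16525 CPM, against 3985 in Vcan+ monocytes, 3595 in Batf3+ dendritic cells (17 cells), 3527 in Cxcr2+ neutrophils and 953 in mesenchymal cells. These classes carry the name of a member family and how they were drawn is not given, so the contrast is a description and was not tested. The level was highest in Ifit+ neutrophils for 19 members and in Ifit+ monocytes for 11. Ifi27l2a was the exception, highest in regulatory T cells at 2203 CPM (39 cells in all, of which only BD replicate 1 held as many as 10).

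**Figure D1:**
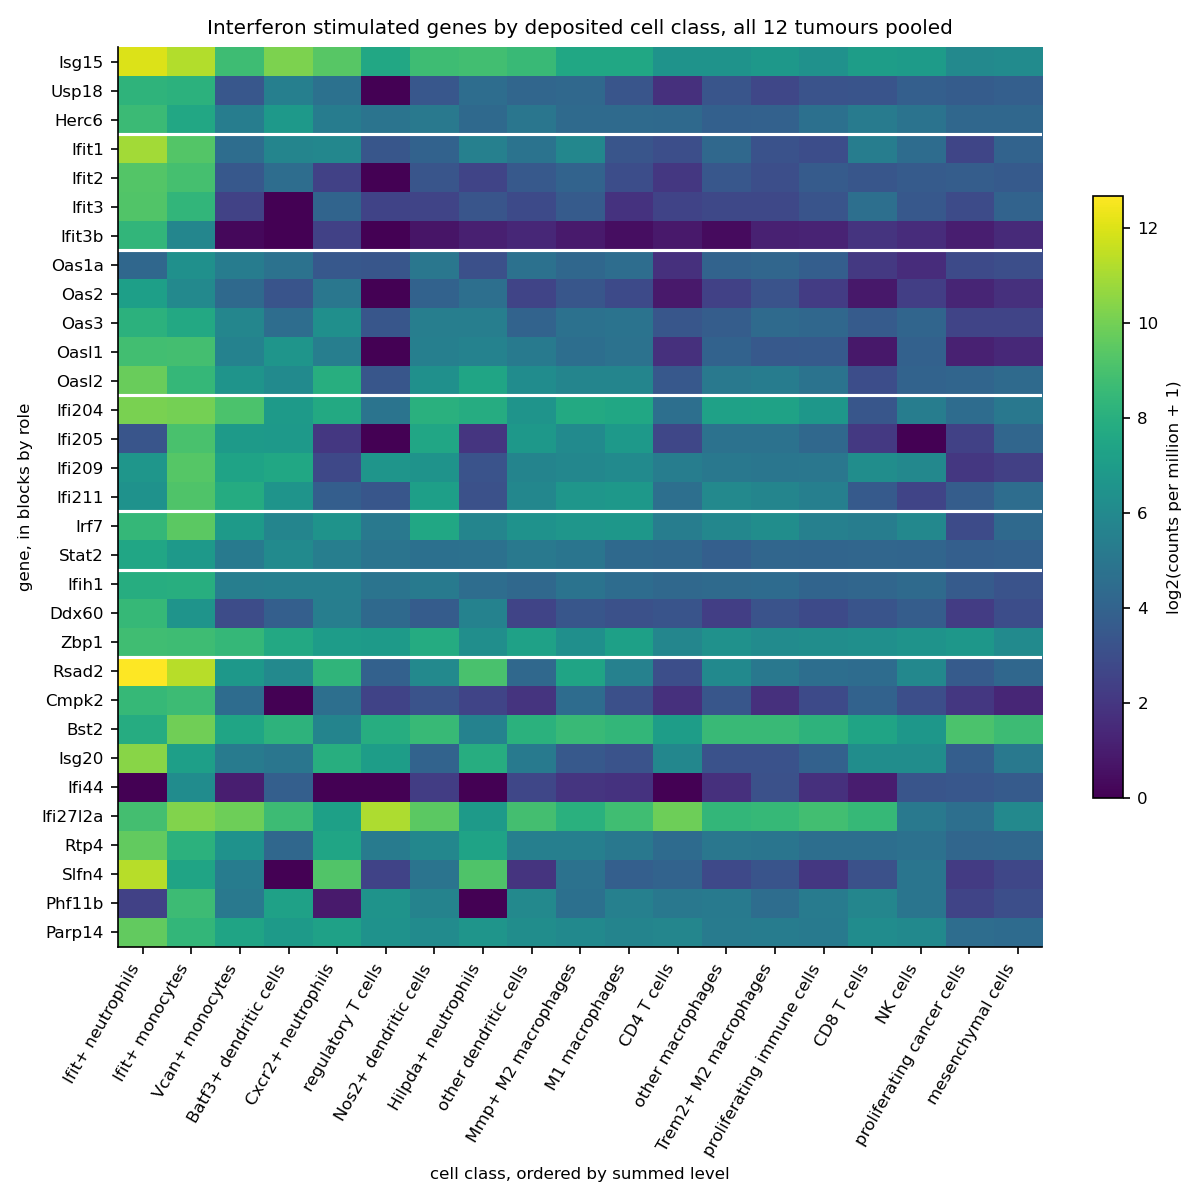
Level of each of the 31 members (rows, in blocks by role) in the 19 deposited cell classes (columns, ordered by summed level), all 12 tumours pooled, as log2(CPM + 1). The columns of Ifit+ neutrophils and Ifit+ monocytes are brightest for most rows, Ifi44 and Phf11b are dark in neutrophil classes, and Bst2 is bright in nearly every class.

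The Ifit+ classes differed in which members led. In Ifit+ neutrophils the members with the most UMIs were Rsad2 (6546 CPM), Isg15 (4118), Slfn4 (2542), Ifit1 (1924) and Isg20 (1364). Ifit+ monocytes had Rsad2 at 2572 and Isg15 at 2365 CPM, followed by Ifi27l2a (1251), Ifi204 (1030.0) and Bst2 (989.9). Slfn4, a Schlafen family member of myeloid cells, stood at 2542 CPM in Ifit+ neutrophils and 166 in Ifit+ monocytes. The reverse held for Ifi205 (9.04 against 525 CPM), and Ifi44 had no UMI in any neutrophil class but 69.7 CPM in Ifit+ monocytes. Levels are CPM and are not adjusted for length, so they compare a gene between classes rather than genes with each other.

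Members also differed in how far they were confined to the Ifit+ class. Ifit+ neutrophils made up 7.61% of neutrophils and 9.94% of their UMIs, and held 46.3% of all member UMIs found in neutrophils. Their share was 93.4% for Ifit2, 92.2% for Ifit3b, 83.9% for Ifit3 and 80.4% for Ifit1. It was lower for Rsad2 (63.8%), Isg15 (44.0%), Zbp1 (32.1%) and Oasl2 (31.2%), the rest of whose UMIs lay in the other neutrophil classes. Among monocytes the Ifit+ class held 10.9% of UMIs and 97.0% of the Ifit3b UMIs, but 13.4% of those of Zbp1. With every cell thinned to 1000 UMIs, Isg15 was found in 92.4% of Ifit+ neutrophils, 84.4% of Ifit+ monocytes, 26.8% of Cxcr2+ neutrophils and 4.47% of proliferating cancer cells. Without thinning these shares were 100%, 100%, 41.0% and 67.9%.

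Outside the Ifit+ classes, the pooled level of Bst2 was highest in proliferating cancer cells. Bst2, a membrane protein that tethers budding virions, reached 541 CPM in proliferating cancer cells and 405 in mesenchymal cells, but 47.4 in Hilpda+ neutrophils. These pools join all groups. In the SD tumours alone, every macrophage value of Bst2 lay above those of both classes (values below), so a high level was not particular to them. Irf7 was at 6.44 CPM in proliferating cancer cells and 188 in Nos2+ dendritic cells. Across 129 sums of a class in a tumour, with class means removed, the genes outside the set that followed the members' mean most closely were Rnf213 (Pearson r = 0.83), B2m (0.78), Ifi47 (0.78) and Tapbp (0.78). B2m and Tapbp serve antigen presentation by MHC class I. Among the members the closest to that mean were Isg15 (0.85), Rtp4 (0.82) and Oasl2 (0.82), and the most distant Ifi44 (0.29), Isg20 (0.38) and Ifi27l2a (0.41). The sums share libraries and tumours, so these values only describe.

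The question put by the diet was whether these genes differed between BD and SD tumours and between BD+ICB and ICB tumours. In neutrophils, no Ifit+ cell was found in the BD tumours, which had few neutrophils: 0 of 15, 0 of 28 and 0 of 19 cells, which allow shares of up to 20%, 10.7% and 15.8% by counting error alone. In the SD tumours the share was 7.48% (8 of 107 cells, exact 95% interval 3.28 to 14.2%), 0.909% (1 of 110) and 3.14% (7 of 223). The difference of -3.84 percentage points had p = 0.1 in a two-sided exact permutation test (adjusted p = 0.2), the smallest that 3 against 3 tumours allow. The limits for the BD tumours all lie above the SD shares, so a difference was not detectable at this depth.

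Under blockade the Ifit+ share of neutrophils overlapped between diets, and the spread among ICB tumours was wide. It was 20.8%, 10.3% and 5.76% with ICB alone (mean 12.3% ± 7.69, SD, n = 3). With the diet added it was 15%, 10.7% and 13.7% (13.1% ± 2.20, SD, n = 3; exact permutation p = 0.9, adjusted p = 1). Over both libraries the diet difference was -1.49 points (exact permutation p = 0.575, adjusted p = 0.595), and it was 0.631 points when ICB replicate 1 was left out. The Ifit+ share of monocytes differed by -4.50 points (diet minus standard) over both libraries (exact permutation p = 0.595, adjusted p = 0.595).

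**Figure D2:**
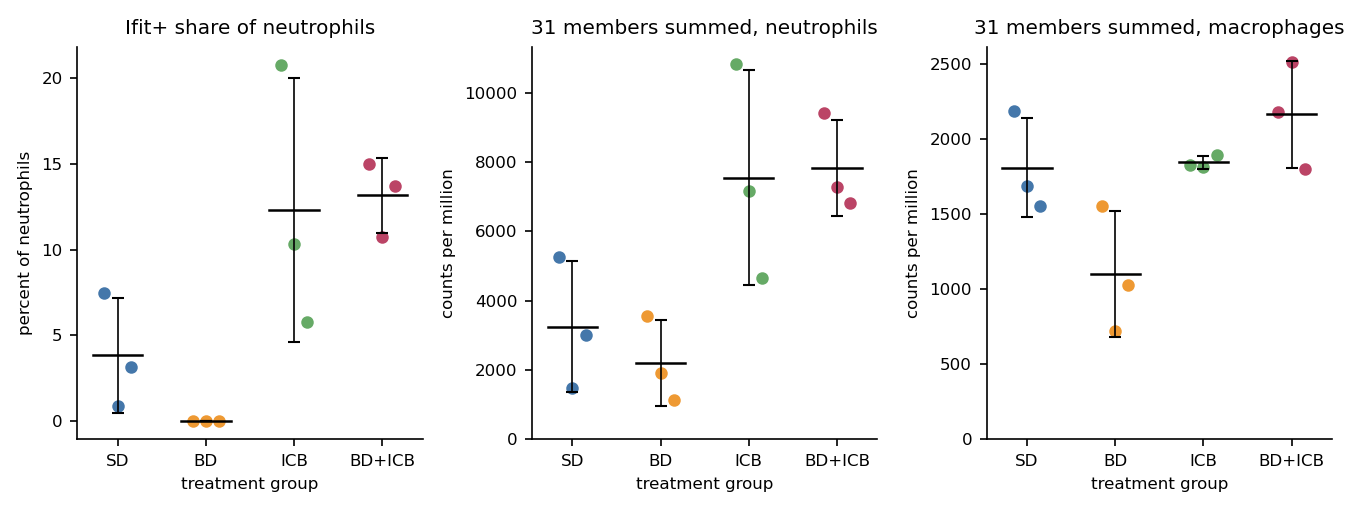
Left, percent of neutrophils in the Ifit+ class per tumour; middle and right, summed CPM of the 31 members in neutrophils and macrophages. Points are tumours, lines the mean and bars ± SD (n = 3). The BD tumours sit at 0% on the left, and the ICB and BD+ICB tumours span 4654 to 10838 CPM in the middle panel, against 1120.9 to 5264 in SD and BD tumours.

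In neutrophils, levels of the members scattered widely within the SD and BD groups. Isg15 was at 892, 176 and 368 CPM in the SD tumours and 495, 157 and 89.7 in the BD tumours. With antibodies it stood at 1489.6, 1152 and 833 (ICB) and 2599, 2178 and 1310.0 (BD+ICB). Values of BD tumours overlapped those of SD, and values of BD+ICB those of ICB. Rsad2, which converts CTP to an antiviral nucleotide, was at 1143, 176 and 717 CPM (SD), 627, 506 and 269 (BD), 2615, 1464 and 610.1 (ICB) and 1202, 764 and 726 (BD+ICB). Ifit1 was found in 1 of 3 BD tumours, with 198, 0 and 0 CPM against 349, 24.7 and 82.9 in SD tumours. For Rsad2 and Ifit1 the SD and BD tumours overlapped as well.

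No member passed an adjusted p of 0.05 for BD against SD in neutrophils (edgeR quasi-likelihood, 25 members among 3402 genes tested; 0% of all genes were called). DESeq2 called none either, and 1 member, Zbp1, was under an unadjusted p of 0.05, as were 5% of all genes. The log2 fold change was below 0 for 23 of 25 members, against 55.5% of all genes, with a median of -0.75 (-0.68 with genes absent from a group set at their bound) against -0.07 for all genes. Estimates were -1.17 (SE 0.82) for Isg15, -0.62 (0.84) for Rsad2, -1.70 (1.90) for Ifit1, -0.22 (0.49) for Oasl2, 0.08 (0.43) for Ifi204 and -0.42 (0.58) for Irf7, with adjusted p of 0.974 or more. The signs for Oasl2 and Ifi204 turned when some tumours were left out, and those for Rsad2 (0.67), Oasl2 (0.10) and Ifit1 (0.60) turned without the Ifit+ class. Zbp1 had 1 UMI in the 3 BD tumours together and 26, 14 and 32 in the SD tumours, a ratio of 8.55-fold lower (95% counting interval 1.49 to 342; adjusted p = 0.814).

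Between BD+ICB and ICB neutrophils no member passed by edgeR or DESeq2 (0.735% of all genes did in edgeR), and 3 were under an unadjusted p of 0.05. How many of all genes were under it is not given, so this count does not set the members apart. Of 25 members, 18 had a value above 0, with a median log2 fold change of 0.16 against 0.01 for all genes. Zbp1, a sensor of Z-form nucleic acids, was at 231, 166 and 122 CPM in ICB and 318, 395 and 227 in BD+ICB tumours, with 1 value of each group in the other's range (log2 fold change 0.88, SE 0.30, edgeR adjusted p = 0.202). Isg15 (0.86, SE 0.58) and Ifit1 (-1.41, SE 1.04) pointed in opposite directions, with adjusted p of 0.75 and 0.779.

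**Figure D3:**
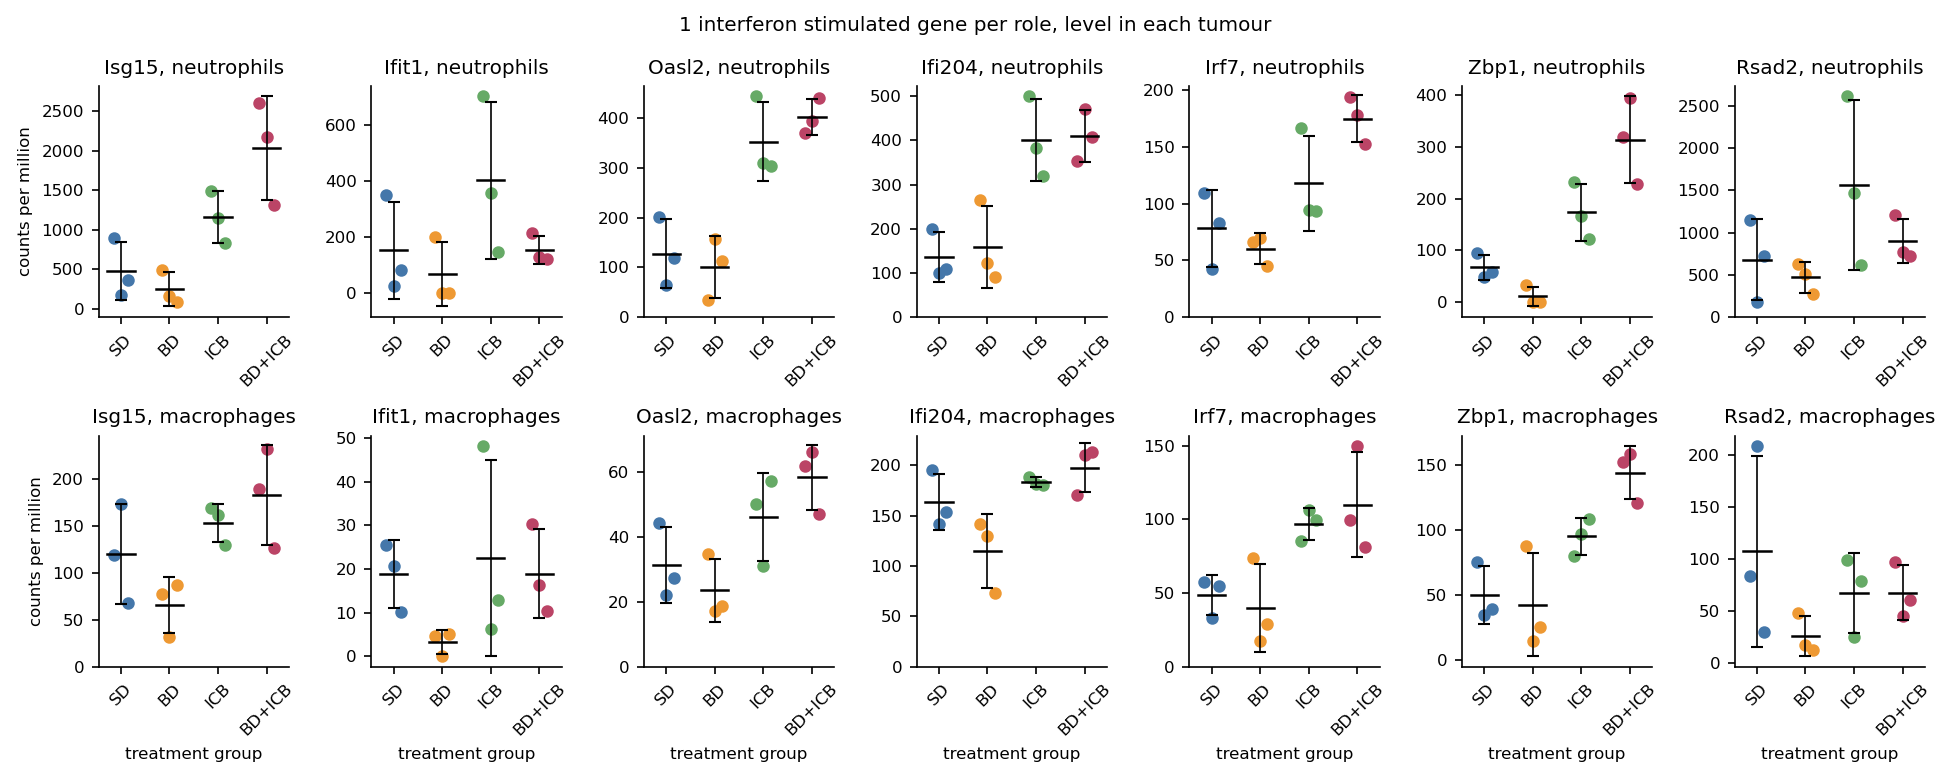
CPM of 1 member per role (columns) in neutrophils (top) and macrophages (bottom) of each tumour. Points are tumours, lines the mean and bars ± SD (n = 3). Isg15, Oasl2, Ifi204 and Zbp1 are higher in ICB and BD+ICB than in SD and BD neutrophils with little or no overlap, while the diets overlap in most panels.

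In macrophages, members were lower on average in BD than in SD tumours without any of them passing the test. Their summed level averaged 1811 CPM ± 333 over the SD tumours, 1102 ± 419 over BD, 1848 ± 43.4 over ICB and 2165 ± 358 over BD+ICB (± SD, n = 3 each). Bst2 was at 485, 431 and 396 CPM in SD and 334, 303 and 288 in BD tumours, with every BD value below every SD value (log2 fold change -0.54, SE 0.15, edgeR adjusted p = 0.228). Ifi204, a DNA sensor, was at 195, 142 and 154 CPM in SD and 142, 129.6 and 73.5 in BD tumours (-0.57, SE 0.20, adjusted p = 0.348). Isg15 was at 119.5, 174 and 67.6 against 77.8, 31.7 and 87.2 CPM, with overlap (-0.79, SE 0.41, adjusted p = 0.566). Estimates for Zbp1 (-0.06, SE 0.49), Irf7 (-0.16, SE 0.40) and Oasl2 (-0.36, SE 0.32) did not pass, with overlap between groups, and BD replicate 1 held the highest value of Zbp1 and Irf7 among the SD and BD tumours.

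Of the 29 members tested in macrophages, 24 had a value below 0 for BD against SD, against 50.6% of 8728 genes, and the median was -0.50 against 0.00 for all genes. None passed an adjusted p of 0.05 with edgeR or DESeq2 (0% of all genes in edgeR), and 4 were under an unadjusted p of 0.05 (10.1% of all genes). The pattern was not shared by all macrophage classes. The median was -0.96 in M1 macrophages (19 of 22 members below 0) and -0.91 in Mmp+ M2 macrophages (21 of 23), but 0.14 in Trem2+ M2 macrophages (7 of 16). In those classes 0.0597%, 0.0212% and 0% of all genes were called by edgeR, and no member. Unadjusted p was under 0.05 for 6, 9 and 0 members, all below 0, and DESeq2 called 2, 2 and 0. The shares of all genes for these counts are not given here, so the counts do not set the members apart. Differences between classes were not tested. Neutrophil markers summed to 493 to 642 CPM in SD macrophages and to 124 to 146 in BD macrophages, and their part in these values was not tested.

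Between BD+ICB and ICB macrophages no member passed by edgeR (0.0229% of all genes did) or DESeq2, 4 were under an unadjusted p of 0.05, and the median was 0.28. The share of all genes under that p and their median are not given here, so these values do not set the members apart. The diet effects in the 2 libraries had opposite medians, and the difference between them had a median of 0.70 over 29 members. Of these, 8 were under an unadjusted p of 0.05 (5.79% of all genes), all upward, and none passed adjustment in edgeR or DESeq2 (0% of all genes).

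A few members were called between BD+ICB and ICB tumours, in monocytes and T cells. They were 3 of 233 member tests in classes, where 79 of 66457 gene tests rose and 125 fell. In compartments they were 2 of 177, where 75 of 48379 rose and 125 fell. In Vcan+ monocytes, the classical monocyte class, 3 of 28 members rose (0.18% of all genes were called). Oasl1, a translational brake on Irf7, was at 15.3, 35.0 and 18.7 CPM in ICB and 106, 74.1 and 47.5 in BD+ICB tumours (log2 fold change 1.88, SE 0.33, edgeR adjusted p = 0.026). Ifi205 was at 37.1, 60.4 and 92.6 against 175, 181 and 150.1 CPM (1.31, SE 0.24, adjusted p = 0.032), and Isg15 at 325, 312 and 351 against 588, 611 and 422 (0.73, SE 0.14, adjusted p = 0.04). For each of the 3 genes every BD+ICB value exceeded every ICB value. Each call was lost when replicate 1 or 2 of either group was left out, with adjusted p reaching 0.14 for Oasl1, 0.16 for Ifi205 and 0.24 for Isg15 over all settings tried. Oasl1 was also lost without ICB replicate 3, and Isg15 without SD replicate 2, with at least 30 cells a tumour and with only the tumours of this library.

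In all monocytes, Ifi205 rose from 133, 102 and 95.7 CPM in ICB to 212, 251 and 195 in BD+ICB tumours (log2 fold change 1.02, SE 0.18, edgeR adjusted p = 0.036; 0.0924% of all genes were called). Its adjusted p reached 0.25 in the settings tried, and the call was lost without 4 tumours in turn (ICB replicates 2 and 3, BD+ICB replicates 1 and 2) and under a stricter hashtag rule. In the same monocytes macrophage markers summed to 2435 to 5359 CPM in ICB and 1759 to 2749.7 in BD+ICB tumours, neutrophil markers to 846 to 4182 and 269 to 1013, and T cell markers to 46.2 to 79.3 and 3.39 to 29.1. Their part was not tested. In T cells Slfn4 fell, from 9.42, 32.8 and 46.9 CPM to 0, 2.90 and 2.06 (-3.63, SE 0.72, adjusted p = 0.0074; 0.559% of all genes were called). It rested on 45 UMIs in ICB and 6 in BD+ICB T cells, and was lost under a stricter hashtag rule (adjusted p = 0.34). Slfn4 is otherwise a gene of myeloid cells here, at 609.7 CPM in Cxcr2+ neutrophils and 7.92 in CD8 T cells, and neutrophil markers in T cells summed to 469 to 2434 CPM in ICB and 33 to 73.2 in BD+ICB tumours, without overlap. Their part in this result was not tested.

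The comparisons of tumours with and without antibodies (ICB against SD, and BD+ICB against BD) join blockade with library. They also share tumours with the diet comparisons. In neutrophils all 25 members tested had a positive value for ICB against SD, with a median log2 fold change of 1.30 against -0.01 for all genes. Of these, 5 rose (3.2% of all genes rose and 5.03% were called in either direction). UMIs per cell were higher in each ICB than in any SD tumour. The SD tumours gave 274687, 283509 and 554800 UMIs from 107, 110 and 223 neutrophils. The ICB tumours gave 384663, 1063842 and 1326037 from 106, 271 and 417. The same held in Cxcr2+ neutrophils and macrophages, and in all of these for BD+ICB against BD. The part of this depth was not tested. Marker sums also moved in neutrophils without overlap. The neutrophil list spanned 78722 to 107009 CPM in SD and 44527 to 77221 in ICB, and the monocyte list 481 to 1654 and 281 to 365. Their part was not tested. Ifi204 was at 200.2, 98.8 and 108 CPM in SD and 502, 384 and 319 in ICB tumours (1.62, SE 0.27, edgeR adjusted p = 0.00027). Oasl2 was at 200.2, 63.5 and 119 against 445, 310.2 and 305 CPM (1.5, SE 0.29, adjusted p = 0.0017). Both genes had no overlap between groups and kept their call in every setting tried.

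Of the other members that rose in ICB neutrophils, Oas3 was at 40.0, 35.3 and 34.2 CPM in SD and 127, 120.3 and 73.2 in ICB tumours (log2 fold change 1.57, SE 0.33, edgeR adjusted p = 0.0038, and 0.054 without SD replicate 3). Zbp1 was at 94.7, 49.4 and 57.7 against 231, 166 and 122 CPM (1.40, SE 0.31, adjusted p = 0.0059, and 0.078 without SD replicate 3). Slfn4 was at 561, 317 and 413 against 1448, 905 and 742 CPM (1.30, SE 0.30, adjusted p = 0.014). Its call was lost when SD replicate 2 or 3 or ICB replicate 1 was left out, with adjusted p up to 0.082. Isg15 (1.32, SE 0.58, adjusted p = 0.232) and Rsad2 (1.25, SE 0.69, adjusted p = 0.351) had estimates of the same size with wider spread.

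BD+ICB against BD neutrophils gave the same number of members, 5 of 25 (3.32% of all genes rose, 4.41% were called), here with 62 BD neutrophils in all as the reference. Oasl2 was at 33, 157 and 112 CPM in BD and 371, 395 and 441 in BD+ICB tumours (log2 fold change 2.02, SE 0.45, edgeR adjusted p = 0.0054). Slfn4 went from 429, 262 and 112 to 1255, 675 and 1266 CPM (2.25, SE 0.41, adjusted p = 0.0017), and Ifi204 from 264, 122 and 89.7 to 354, 471 and 407 (1.65, SE 0.40, adjusted p = 0.011, and 0.093 without BD replicate 2). Zbp1 had 1 UMI in BD and 116 in BD+ICB neutrophils, a ratio of 35.7 (95% counting interval 6.28 to 1421; adjusted p = 6.7e-05). Oas3 had 3 against 63 UMIs, a ratio of 6.46 (2.11 to 32.2; adjusted p = 0.017, and up to 0.21 in other settings, lost when BD replicate 2, the Ifit+ class or BD+ICB replicate 3 was left out). Isg15 missed the threshold (3.35, SE 0.79, adjusted p = 0.051), and Ifit3, with no UMI in BD neutrophils, was at least 2.87-fold higher in BD+ICB.

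The rise was also seen within Cxcr2+ neutrophils, a class apart from the Ifit+ one. For ICB against SD, 8 of 19 members rose there (1.52% of all genes rose). Parp14, an ADP-ribosyltransferase, was at 43.1, 43.6 and 48.2 CPM in SD and 177, 189.8 and 194 in ICB tumours (log2 fold change 2.10, SE 0.33, edgeR adjusted p = 0.00024). Ifi204 was at 55.4, 65.4 and 75.4 against 317, 184 and 255 CPM (1.94, SE 0.35, adjusted p = 0.0012). These calls held in every setting tried. Oas3 (1.92), Oasl2 (1.66), Zbp1 (1.58), Rtp4 (1.25), Isg15 (1.12) and Isg20 (1.07) rose too, each losing the call without SD replicate 3 and most without other tumours, with adjusted p up to 0.31 (Isg15). In Hilpda+ neutrophils, a class named for a lipid droplet gene, Ifi204 (1.25) and Slfn4 (1.05) rose (3.95% of all genes rose). Ifi204 lost the call without SD replicate 3 or ICB replicate 2 (adjusted p up to 0.12) and Slfn4 without 4 tumours in turn (up to 0.33).

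For BD+ICB against BD, with 2 BD tumours that had 10 or more Cxcr2+ neutrophils, 5 members rose (2.84% of all genes rose). Isg15 was at 233 and 122 CPM in BD and 2111, 1522 and 1192 in BD+ICB tumours (3.33, SE 0.49, edgeR adjusted p = 6.2e-05, at most 0.0033 in other settings). Zbp1 had no UMI in these BD cells and was at least 5.87-fold higher in BD+ICB (adjusted p = 0.00046). Slfn4 rose (2.53, SE 0.59, adjusted p = 0.02, up to 0.1, lost when BD replicate 3 or BD+ICB replicate 1 or 3 was left out and with the block on tumour number), and Parp14 and Rtp4 each rested on 1 UMI in the BD tumours, with ratios of 15.9 (95% counting interval 2.77 to 635) and 15.7 (2.74 to 627). Leaving out BD replicate 3 took their adjusted p to 0.051 and 0.058.

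**Figure D4:**
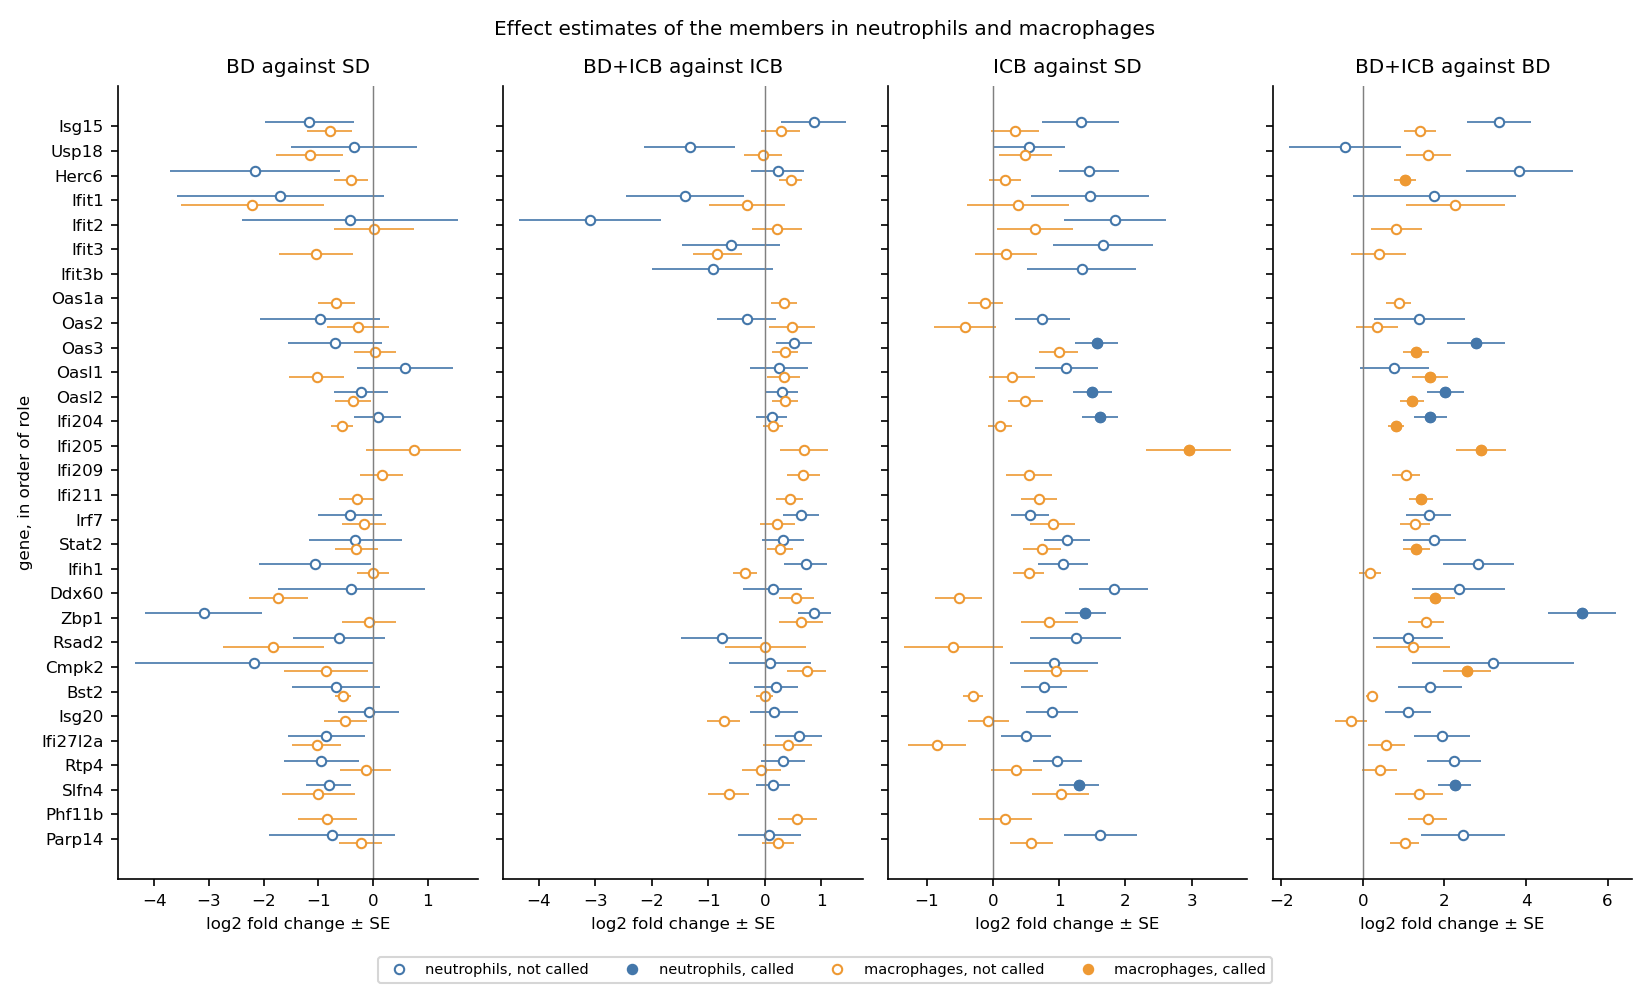
Log2 fold changes (points) ± SE (bars) of the members in neutrophils (blue) and macrophages (orange) for 4 comparisons, genes in order of role, filled where the adjusted p was under 0.05; estimates with an SE of 2.5 or more, from genes nearly absent in a group, are left out. No point is filled in the diet panels, and the neutrophil points of ICB against SD all lie above 0.

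In macrophages 1 of 29 members rose for ICB against SD (2.26% of all genes rose, 5.77% were called). Ifi205 was at 11.7, 12.4 and 3.19 CPM (SD), 27.7, 2.88 and 1.25 (BD), 59.5, 73.5 and 70.0 (ICB) and 87.8, 153 and 80.2 (BD+ICB). All 6 tumours with antibodies were above all 6 without (ICB against SD: log2 fold change 2.95, SE 0.64, edgeR adjusted p = 0.03; BD+ICB against BD: 2.91, SE 0.61, adjusted p = 0.03). The ICB against SD call was lost when any SD or ICB tumour or BD+ICB replicate 1 was left out, with adjusted p up to 0.11. The median over the members was 0.37 against 0.02 for all genes.

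For BD+ICB against BD, 10 of 29 members rose in macrophages (2.27% of all genes rose, 4.47% were called), with a median of 1.23 against -0.02 for all genes. Different classes made up the macrophages: M1 macrophages were 45 of 188, 1 of 33 and 14 of 72 cells in BD and 106 of 211, 104 of 153 and 85 of 165 in BD+ICB tumours. Macrophage markers summed to 12760.1 to 28082 CPM in BD and 5348 to 12909 in BD+ICB tumours, and the part of this makeup in the result was not tested. The members that rose came from most roles. Besides Ifi205, Ifi211 was at 64.7, 14.4 and 28.7 CPM in BD and 106, 129 and 96.9 in BD+ICB tumours (log2 fold change 1.43, SE 0.29, edgeR adjusted p = 0.013), and Ifi204 also rose (0.81, SE 0.19, adjusted p = 0.019). Oas3 (1.31), Oasl2 (1.2) and Oasl1 (1.65) rose among the OAS group, Stat2 (1.31) among the factors, Herc6 (1.04) in the ISG15 system, Ddx60 (1.77) among the sensors, and Cmpk2 (2.55), the neighbour of Rsad2, among the effectors. Leaving out BD replicate 3 lost each of these 10 calls, with adjusted p up to 0.19 (Oasl1). Isg15 (1.40, SE 0.40, adjusted p = 0.084) and Zbp1 (1.55, SE 0.45, adjusted p = 0.092) did not pass.

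Among macrophage classes, M1 macrophages (2 BD tumours) had 5 members that rose for BD+ICB against BD: Zbp1 (1.2), Ifi204 (1.11), Ifi211 (1.46), Bst2 (0.96) and Oasl2 (1.88), where 1.04% of all genes rose. All 5 calls were lost without BD replicate 3, with adjusted p up to 0.27 for Bst2 and Oasl2. Trem2+ M2 macrophages had 3, Parp14 (1.68), Oasl2 (1.5) and Ifi205 (3.02), where 1.76% of all genes rose, also lost without BD replicate 3 and other tumours, with adjusted p up to 0.23 (Parp14). Ifi205 rose in this class for ICB against SD too (3.25, SE 0.67, edgeR adjusted p = 0.013, up to 0.087, lost without SD replicate 3 or ICB replicate 1), where 2.28% of all genes rose. 1 member moved the other way in the remaining macrophages. Ifi27l2a, a small mitochondrial protein, was at 664 and 482 CPM in the 2 SD tumours with enough of these cells and 214, 295 and 273 in ICB tumours (log2 fold change -1.18, SE 0.20, edgeR adjusted p = 0.0011, at most 0.034 in other settings; 2.39% of all genes fell and 4% were called). Isg15 rose in the same cells from 55.2 and 25.2 to 137, 96.5 and 100.3 CPM (1.31, SE 0.32, adjusted p = 0.02, up to 0.25 elsewhere, lost without SD replicate 3 or ICB replicate 1 and with DESeq2).

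The class named mesenchymal, with 15 to 57 cells per tumour, showed the members' rise for ICB against SD outside the classes named as immune. Its markers overlapped those of proliferating cancer cells, as given above. No BD or BD+ICB tumour had 10 such cells. The SD tumours gave 1145182, 736546 and 1207060 UMIs from 48, 39 and 57 of these cells. The ICB tumours gave 1833264, 1530152 and 617156 UMIs from 31, 24 and 15. UMIs per cell were thus higher in each ICB than in any SD tumour, and the part of this depth was not tested. The summed level was 579, 616 and 415 CPM in SD and 1418, 1064 and 1134 in ICB tumours, without overlap. Of 19 members tested, 7 rose (1.96% of all genes rose, 4.44% were called), and the median was 1.07 against 0.01. Zbp1 was at 23.6, 20.4 and 11.6 CPM in SD and 115, 94.1 and 98.8 in ICB tumours (log2 fold change 2.37, SE 0.25, edgeR adjusted p = 0.00038). Ifi44, a little-studied antiviral protein, was at 1.75, 2.72 and 1.66 against 25.1, 12.4 and 25.9 CPM (3.22, SE 0.51, adjusted p = 0.004). Both held in every setting tried.

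The other mesenchymal calls were more fragile. Bst2 went from 253, 219.9 and 104 CPM in SD to 598, 559 and 656 in ICB tumours (log2 fold change 1.54, SE 0.30, edgeR adjusted p = 0.041, up to 0.13, lost without SD replicate 2 or any ICB tumour). Ifit3 went from 3.49, 1.36 and 4.14 to 40.4, 18.3 and 9.72 CPM (2.81, SE 0.60, adjusted p = 0.028, up to 0.12, lost without any SD tumour or ICB replicate 1). Usp18 (2.14, SE 0.43, adjusted p = 0.016), Oasl2 (1.59, SE 0.36, adjusted p = 0.026) and Stat2 (1.57, SE 0.39, adjusted p = 0.039) rose as well, with adjusted p up to 0.078, 0.1 and 0.15 and each lost when SD replicate 2 or 3 or ICB replicate 1 was left out. Marker levels moved in the same cells: macrophage markers summed to 1880 to 3694 CPM in SD and 81.7 to 773 in ICB tumours, neutrophil markers to 709 to 4258 and 30.5 to 1042, and monocyte markers to 933 to 968 and 1424 to 1763. Their part in these results was not tested.

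In proliferating cancer cells 1 of 26 members rose for ICB against SD (0.364% of all genes rose). Bst2 was at 135 and 115 CPM in the 2 SD tumours with enough cells, 390.1, 549.6 and 654 in ICB and 849 and 838 in the 2 BD+ICB tumours (ICB against SD: log2 fold change 2.03, SE 0.21, edgeR adjusted p = 0.003, and 0.055 without SD replicate 3). The groups followed each other without overlap. Neutrophil markers in these cells summed to 987 to 2082 CPM in SD, 59.7 to 719 in ICB and 7.07 to 74.3 in BD+ICB, also without overlap between SD and ICB, and their part was not tested. UMIs per cell were higher in each ICB than in either SD tumour. The SD tumours gave 1081804 and 903157 UMIs from 18 and 13 cells, the ICB tumours 4301666, 1881359 and 2265420 from 36, 16 and 17. The part of this depth was not tested. In the cells named dendritic, with 2 SD tumours, Ifi211 went from 24.5 and 32.3 to 103, 108 and 124 CPM (1.77, SE 0.40, adjusted p = 0.018) and Irf7 from 30.7 and 37.7 to 133, 182 and 96.8 (1.74, SE 0.45, adjusted p = 0.045), where 0.917% of all genes rose. Nos2+ cells, whose markers were those of macrophages and monocytes, were 5 of 17 and 2 of 17 of these cells in the SD tumours. They were 41 of 67, 6 of 12 and 15 of 33 in the ICB tumours. In this merged sum the makeup and the level within a class therefore cannot be told apart. The calls of Ifi211 and Irf7 were lost without either SD tumour, with adjusted p up to 0.16 and 0.27. Outside the Nos2+ and Batf3+ classes the members' summed level in dendritic cells was 1192 and 905 CPM in SD and 2027 and 2870 in ICB tumours. In the dendritic cells outside the Nos2+ and Batf3+ classes Zbp1 rose from 20.4 and 41.9 to 160.1 and 219.6 CPM in 2 tumours a group (2.37, SE 0.49, adjusted p = 0.026, up to 0.23, lost without SD replicate 1 or 3 or ICB replicate 3; 0.178% of all genes rose).

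**Figure D5:**
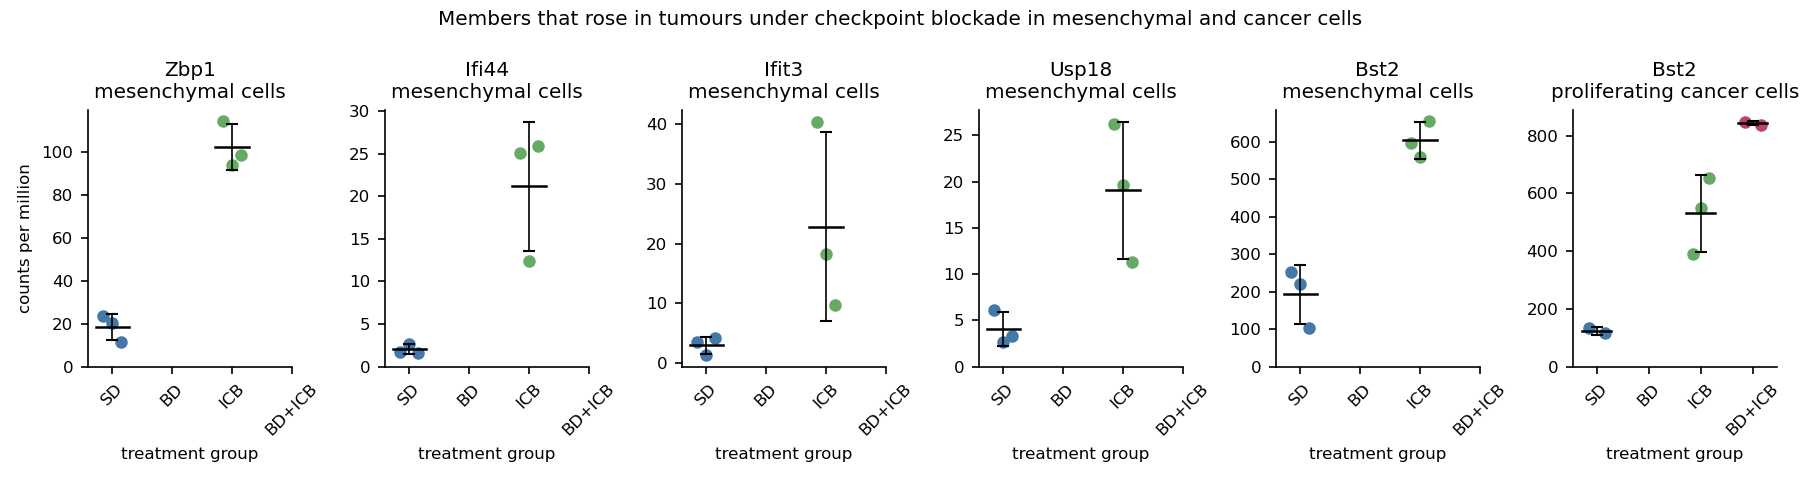
CPM per tumour of 5 members in mesenchymal cells and of Bst2 in proliferating cancer cells. Points are tumours with at least 10 cells of the class, lines the mean and bars ± SD; groups with no point had no such tumour. ICB tumours lie above SD tumours in each panel, from 94.1 CPM against at most 23.6 for Zbp1.

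Summed over all cells of a tumour, the share of members called for the diet was near that of all genes. In such sums fewer cells of a type and less RNA per cell cannot be told apart. Over both libraries 12 of 31 members were called, against 30.6% of all genes, and the median was 0.12. All 4 PYHIN genes rose: Ifi209 (log2 fold change 1.09, SE 0.23), Ifi211 (0.73), Ifi205 (1.31) and Ifi204 (0.48). Irf7 (0.74), Oas1a (0.56) and Bst2 (0.25) rose too. Ifit1 (-1.25), Ifit3 (-1.21) and Ifit3b (-1.87) fell, as did Rsad2 (-0.90) and Isg20 (-0.74, SE 0.16).

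Ifi209 was at 23.2, 15.2 and 13.8 CPM on standard chow and 45.5, 7.83 and 25.6 on the diet; with antibodies the values were 37.1, 26.2 and 44.2 and 78.6, 77.4 and 74.3 (edgeR adjusted p = 0.0048). Isg20, an exonuclease, was at 39.6, 35.1 and 48.9 CPM on chow and 23.2, 29.4 and 19.7 on the diet, and with antibodies at 45.7, 78.6 and 59.6 and 28.5, 33.4 and 37.2 (adjusted p = 0.0044). Isg20 was lower on the diet without overlap in both libraries, Ifi209 higher without overlap in the ICB library, and both calls held in every setting. Irf7, Ifi211 and Oas1a lost theirs without BD replicate 1 (adjusted p up to 0.053, 0.12 and 0.054), and Ifi205 then had a log2 fold change of 0.07 (adjusted p = 0.95). The other 6 were lost without several tumours, with adjusted p up to 0.12.

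The cell makeup moved with these sums. Neutrophil markers ranged from 6274 to 13103 CPM (SD), 725 to 10308 (BD), 2526 to 11477 (ICB) and 555 to 3322 (BD+ICB). Macrophage markers ranged from 9657 to 11689, 8329 to 22071, 2881 to 7371 and 2332 to 5503 CPM in the same order. Their part in these values was not tested. Within neutrophils and within macrophages no member was called for the diet over both libraries (0.0882% and 0.252% of all genes were), by edgeR or DESeq2, and 0 and 4 were under an unadjusted p of 0.05. The shares of all genes under that p are not given here.

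Within a library, no member was called over all cells for BD against SD by edgeR (21.3% of all genes were called) and 6 for BD+ICB against ICB (6.48%). For BD against SD 4 members were under an unadjusted p of 0.05 and DESeq2 called 2. The shares of all genes beside these last counts are not given. For ICB against SD 10 rose (1.34% of all genes rose) and for BD+ICB against BD 14 (3.9%). Isg15 rose in both, from 134, 90.2 and 98.9 CPM in SD to 169, 292 and 268 in ICB (log2 fold change 1.12, SE 0.20, edgeR adjusted p = 0.02, up to 0.094) and from 107, 82.2 and 74.3 in BD to 308, 305 and 259.8 in BD+ICB tumours (1.62, SE 0.22, adjusted p = 0.0023, at most 0.022). The ICB against SD call was lost when replicate 2 or 3 of either group was left out. Herc6 also rose in both (0.87, adjusted p = 0.033, up to 0.12; 1.45, adjusted p = 0.006, at most 0.045), the former lost without the same tumours or BD+ICB replicate 1.

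The other members that rose over all cells for ICB against SD were Zbp1 (log2 fold change 1.62), Ifi44 (1.36), Oas3 (1.27), Parp14 (1.19), Oasl2 (1.18), Stat2 (1.10), Ifih1 (0.76), a sensor of long double-stranded RNA, and Bst2 (0.51). Each was lost when replicate 2 or 3 of either group was left out, with adjusted p up to 0.16. For BD+ICB against BD they were Ifi205 (2.22), Ifi44 (2.17), Zbp1 (1.91), Ifi211 (1.41), Parp14 (1.35), Oas3 (1.32), Ifi209 (1.21), Stat2 (1.19), Oasl2 (1.08), Irf7 (0.95), Ifi204 (0.82) and Bst2 (0.53). Each was lost without BD replicate 3, with adjusted p up to 0.18. For BD+ICB against ICB Ifi209 (1.2), Ifi211 (0.98), Irf7 (0.81) and Oas1a (0.72) rose and Ifit3b (-2.26) and Isg20 (-0.78) fell. Each of these was lost without ICB replicate 2 or BD+ICB replicate 1 or 2, with adjusted p up to 0.18.

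Of 73 other genes of the pathway listed, 62 had a row. Among ligands only Ifnb1 and Ifng had one. Ifnb1 had 0 to 13 UMIs per tumour, in 5 of 12 tumours. Ifng, the type II interferon, rose over all cells for BD+ICB against ICB (log2 fold change 2.13, SE 0.53, edgeR adjusted p = 0.045). There 6.48% of all genes were called. T cell markers over all cells summed to 205 to 399 CPM in ICB and 408 to 952 in BD+ICB tumours, and NK markers to 163 to 238 and 314 to 695. Their part was not tested. In ICB against SD neutrophils 12 of 38 tested pathway genes rose, beside the 5 of 25 members (3.2% of all genes rose). Among these pathway genes were the nucleotide hydrolase Samhd1 (1.42, SE 0.27, edgeR adjusted p = 0.0016) and the brake Socs1 (1.08). None changed for BD against SD in neutrophils. In mesenchymal cells 8 of 39 rose and 1 fell for ICB against SD (1.96% of all genes rose, 4.44% were called). Irf9 (1.29), Irf1 (1.19) and Socs1 (1.31) were among those that rose. The receptor genes Ifnar1 and Ifnar2 were not called in neutrophils or macrophages in any of these comparisons. Of the 31 members, Ifit2, Oas2 and Phf11b were called in no class, compartment or sum of all cells.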

How the data were processed

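Single-cell RNA was read with 10x Chromium in 2 libraries holding 12 tumours. The deposited table gives UMI counts per gene and cell, deposited by the authors after Cell Ranger (6.1.1 per the file headers) with build mm10 and R 4.1, per the submitters' processing notes. The deposited cell table gives each cell's tumour, class and mitochondrial percent (all 5749 cells under 5 percent and over 500 hashtag counts, tested on the file). How classes were clustered and doublets treated is not given in the sources used here.

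Counts were summed per tumour and class, merged compartment or all cells (at least 10 cells), since cells are not replicates. CPM is counts per 1000000 UMIs of such a sum. edgeR 4.0.16 (R 4.3.3; TMM, filterByExpr, quasi-likelihood, robust) was fitted to all genes and 4 groups, with Benjamini-Hochberg adjustment over the genes of a fit and a threshold of 0.05; p-values were not adjusted across fits. Shares of cells were compared by exact permutation over tumours, two-sided, with exact binomial intervals at 95%; intervals and limits (3 counts) cover counting error only. Correlations used log2(CPM + 10). Python 3.11.15, numpy 2.4.6, pandas 2.3.3 and scipy 1.17.1 were used. Scripts were tested on simulated data. Alternatives were DESeq2 1.42.0, other size factors, no filter on low counts, 30 cells, a stricter hashtag rule (5325 cells, whose leading hashtag had 10 counts or more and 3 times those of the runner-up), cells of 1000 UMIs or more (5666), a block on tumour number, the library's own tumours, no Ifit+ classes, and each tumour left out.

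Members and lists were chosen with earlier results of these data known. Fold changes, or a ratio or bound at few counts, are given for every member called, and values by tumour for some of them and for the most abundant members per role. Promoters and positions are from RefSeq (GRCm38.p6).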

Additional observations from a re-analysis of the deposited data

How the results depend on the processing

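Of 105 calls of a member in a class, compartment or all cells, 16 held under every setting, 17 without each left-out tumour, and none reversed; over 1934 refitted values 1503 kept the call. Without a filter on low counts the number of members called was 4 for BD against SD in classes (0 as reported), 15 for BD+ICB against ICB in classes (3), 5 for the diet over both libraries in classes (0), 10, 49 and 29 in compartments for BD+ICB against ICB (2), ICB against SD (16) and BD+ICB against BD (15), 7 over all cells for the diet (12) and 3 for the difference of diet effects (0). DESeq2 gave 4, 1 and 24 for BD against SD in classes, the diet in classes and BD+ICB against BD in compartments. The stricter hashtag rule gave 5 for BD+ICB against ICB in classes, 1 in compartments, and 1 for the difference of diet effects. At least 30 cells gave 1 for BD+ICB against ICB and 8 for ICB against SD in compartments, and no value for the diet in classes. The library's own tumours gave 1, and leaving out the Ifit+ classes 5, for BD+ICB against ICB in compartments. All counts in this section stand without the share of all genes called under the same setting. They show how far the calls depended on the setting and are not a result about the members.

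Leaving out each tumour gave 0 to 2 members called for BD against SD and for the diet in classes, 0 to 4 for BD+ICB against ICB in classes and 1 to 4 in compartments, 6 to 22 for ICB against SD, 5 to 20 for BD+ICB against BD, 4 to 13 for the diet over all cells and 0 to 2 for the difference of diet effects. The diet difference of the Ifit+ share of neutrophils ranged from -3.12 to 0.631 points.

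Log2 fold changes of uncalled members in neutrophils that turned sign for BD against SD were 0.67 (Rsad2), 0.10 (Oasl2) and 0.60 (Ifit1) without the Ifit+ class and -0.20 (Ifi204) without the filter. For BD+ICB against ICB they were 0.020 (Rsad2) without the Ifit+ class and -0.15 (Ifi204) without the filter. With tumours left out, BD against SD ranged from -0.36 to 0.38 (Ifi204) and -0.78 to 0.13 (Oasl2) in neutrophils and from -1.26 to 0.38 (Zbp1) and -1.03 to 0.098 (Irf7) in macrophages, and BD+ICB against ICB from -0.11 to 0.29 (Ifi204) in neutrophils. The cause was not tested.

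Tumours of the same number correlated at -0.104 to 0.270 in neutrophils (median 0.021, against -0.0062 for different numbers) and at -0.098 to 0.277 in macrophages (median 0.053, against -0.020). Not every pair was over 0.1, so the numbers were not taken as pairs. With the replicate block, 5 members were called for BD+ICB against ICB in classes, 25 for BD+ICB against BD in compartments and 23 for ICB against SD.

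The BD tumours held 15, 28 and 19 neutrophils and 7, 2 and 5 monocytes, which limits what their comparisons can show.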
